A study of Mus musculus with 10 samples.

Results

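The receptor genes examined here were Lepr, Mc3r, Mc4r, Brs3, Galr1, Crhr1, Crhr2, Ntsr1, Ntsr2 and Npy1r, which encode the leptin receptor and receptors for melanocortins, bombesin-like ligands, galanin, corticotropin-releasing hormone and urocortins, neurotensin and neuropeptide Y. The values described are those of all probe sets (groups of short oligonucleotides read together as 1 value) whose annotation named exactly 1 gene and that gene was on the list. This gave 17 of the 45037 probe sets that were not controls, for 9 of the 10 listed genes. Ntsr2, Ntsr1, Mc3r and Brs3 had 1 probe set each, Crhr1, Crhr2 and Npy1r had 2 each, Galr1 had 3 and Lepr had 4. Mc4r was not analysed here.

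RNA came from the preoptic region, taken by laser capture microdissection from the brains of 10 DBA1/lacJ mice, and was measured on 10 Affymetrix arrays, 1 array per mouse. The titles and genotype labels place 5 mice in the wild-type group (WT) and 5 in the group lacking mPGES-1 (KO), the enzyme that makes prostaglandin E2 during inflammation and is encoded by Ptges. Every mouse in both groups had received lipopolysaccharide (LPS, a bacterial cell wall component that produces fever) at 120 µg/kg into the peritoneum, and brains were removed 5 hours later. No LPS-free mice were analysed here, so the comparison is one of genotype under LPS and gives no response to LPS. The labels do not give age or sex, nor the design of the deleted allele.

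The preoptic region of the hypothalamus holds neurons that read core and skin temperature and set heat production and heat loss, and prostaglandin E2 acts there to start fever. Peptide signals reach the same neurons. Leptin, from fat, reports energy stores through Lepr and the JAK-STAT pathway, while the other receptors on the list are coupled to G proteins. Neurotensin given into the preoptic region is known to lower body temperature, melanocortin and corticotropin-releasing hormone signalling are tied to heat production, and Brs3, a bombesin receptor family member without a well established peptide ligand in mammals, has been linked to body temperature and energy use. Galanin is made by preoptic neurons themselves.

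Levels are deposited array intensities in arbitrary units. Probe sets differ in how well they hybridise, so an order of intensities is an order of signal and not of transcript number. As a yardstick for signal without a target, 38 probe sets of 26 genes whose expression is restricted to organs other than the brain were read in the same arrays. Their median was 11.3 intensity units and the brightest, for Uox, the liver urate oxidase, had a mean of 44.8. Of the receptor probe sets, 3 of 17 had a mean signal above every one of these 38, and 14 did not. The 3 were those for Ntsr2 and Ntsr1 and the brighter of the 2 for Npy1r. They were above all 38 on 10, 9 and 5 of the 10 arrays in that order. The start regions of these 3 genes are shown for orientation, since each had a probe set with a mean signal above all 38. They run from 250 bases before to 50 bases after the annotated start, 5′ to 3′ on the + strand. Each CG dinucleotide is in capitals.
Ntsr2, chr12:16653220-16653519: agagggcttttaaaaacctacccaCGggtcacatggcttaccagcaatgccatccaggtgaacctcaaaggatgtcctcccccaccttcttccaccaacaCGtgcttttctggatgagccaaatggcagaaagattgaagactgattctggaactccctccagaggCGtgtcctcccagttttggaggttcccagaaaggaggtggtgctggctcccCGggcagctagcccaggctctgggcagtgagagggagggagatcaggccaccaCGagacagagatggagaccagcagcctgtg
Ntsr1, chr2:180499726-180500025: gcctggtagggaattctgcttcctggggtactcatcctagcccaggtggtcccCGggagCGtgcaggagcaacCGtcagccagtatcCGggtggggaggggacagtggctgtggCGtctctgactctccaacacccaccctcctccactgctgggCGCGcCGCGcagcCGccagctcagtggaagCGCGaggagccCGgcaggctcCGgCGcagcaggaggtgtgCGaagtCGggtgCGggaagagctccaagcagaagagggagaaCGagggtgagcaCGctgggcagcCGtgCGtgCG
Npy1r, chr8:66697172-66697471: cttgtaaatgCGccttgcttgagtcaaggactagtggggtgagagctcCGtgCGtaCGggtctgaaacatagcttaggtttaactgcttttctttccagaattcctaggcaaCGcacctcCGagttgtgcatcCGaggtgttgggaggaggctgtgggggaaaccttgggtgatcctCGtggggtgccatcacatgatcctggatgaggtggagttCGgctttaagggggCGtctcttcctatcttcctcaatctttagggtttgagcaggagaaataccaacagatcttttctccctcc
The sequences are from RefSeq, build GRCm38.p6. The 9 windows kept covered 8 of the listed genes, and those of Galr1 and Mc4r were left out. The Ntsr2 window held 5 CG dinucleotides, the Ntsr1 window 23 and the Npy1r window 10, against a median of 7 over 32851 windows of the same 300 bases. The TATA motif TATAAA, searched on both strands, was found in 1 of the 9 receptor windows, that of Crhr2, and in 13.6% of all windows. The cyclic AMP response motif TGACGTCA was in none of the 9 and in 1.79% of all windows. The STAT motif TTCCNGGAA was also in none of the 9, against 1.15% of all. The arrays carry no reading of these regions, and these matches describe letters only.

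**Figure D1:**
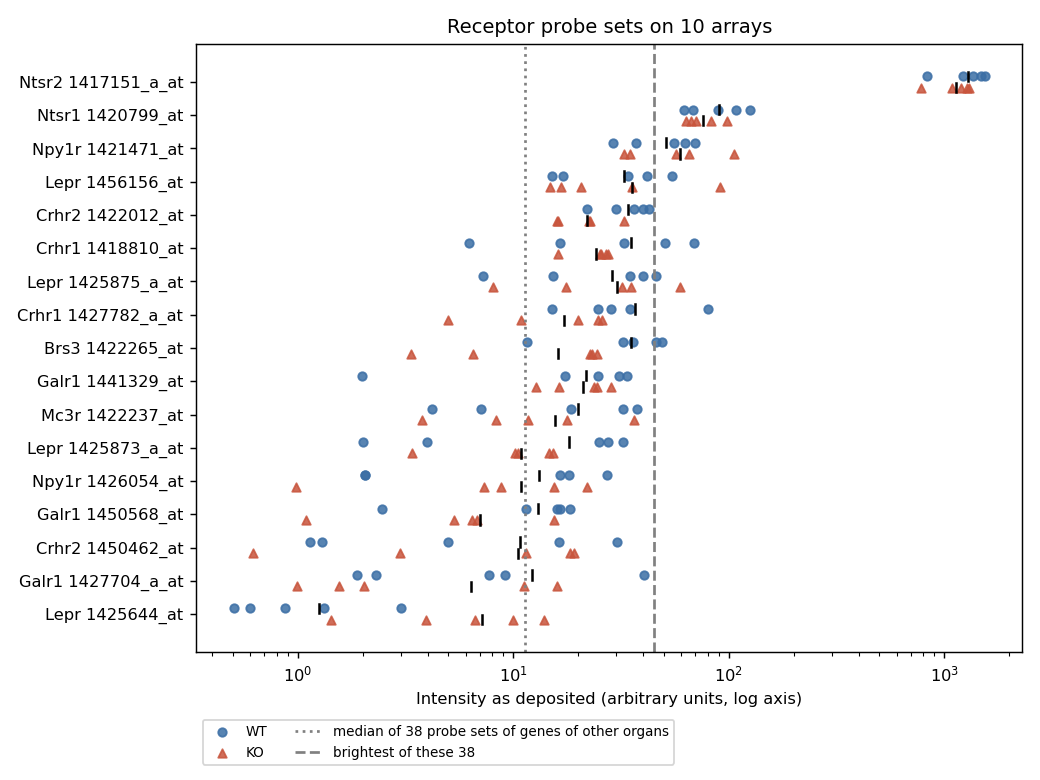
Intensity as deposited (arbitrary units, log axis) of the 17 receptor probe sets on 10 arrays, with circles for the 5 WT arrays, triangles for the 5 KO arrays and black ticks for group means. The dotted and dashed lines mark the median (11.3) and the highest mean (44.8) of 38 probe sets of genes of other organs, and the group means of Ntsr2, Ntsr1 and the brighter Npy1r probe set lie to the right of the dashed line.

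Several facts of the whole data set bear on the comparison. The deposited values had been scaled to a common mean, but the median intensity of all probe sets was 32.0 to 44.8 on the WT arrays and 24.6 to 29.8 on the KO arrays, so the groups did not overlap. Hybridisation controls, RNAs added before the arrays were hybridised, had a median of 684 to 2055 on the WT and 407 to 862 on the KO arrays. Of the 38 probe sets of other organs, 31 were lower in KO. Their median difference was -0.20 on the log2(intensity + 16) scale used throughout. In the percentile bands 0-20, 20-40 and 40-60 of signal, 73.7%, 75.7% and 71.6% of all probe sets were lower. In the brighter bands 60-80 and 80-100 these shares were 58.5% and 46.0%. By array the groups overlapped, the median of the 38 being 7.22 on WT 1 and 8.98 on KO 1. Poly-A spike-in signal was present on 7 arrays and at a median of 1.22 to 14.2 on WT 2, WT 5 and KO 3. The ratio of signal at the 3′ end to that at the 5′ end of control transcripts was high on every array. It was 112 to 355 for actin and 24.6 to 53.4 for Gapdh, and its part in the receptor signals was not tested. Ptges, the targeted gene, had a higher mean in the KO arrays for each of its probe sets. Its probe set 1439747_at read 4.54 ± 3.09 (SD, n = 5) in WT and 49.96 ± 24.5 in KO. Every KO array was above every WT array there, and the difference was 1.60 (limma adjusted p = 0.111). The smallest limma adjusted p of any probe set also rounded to 0.111. The probe set 1449449_at differed by 0.95 (limma adjusted p = 0.302) and 1449450_at by 0.27 (limma adjusted p = 0.774). Over the 10 arrays the Ptges probe sets had mean log2 levels of 5.15 (1439747_at), 5.23 (1449449_at) and 5.55 (1449450_at). These were below the brightest probe set of other organs (5.83), though the KO mean of 1439747_at was 5.95. The cause of the higher Ptges signal was not tested. Whether these probe sets lie in the deleted part is not given in the sources used here, and the groups are called by their labels, as the arrays labelled WT or KO. Of 16 preoptic and anterior hypothalamic markers measured, 13 were above every probe set of other organs, Gal and Pgr being the brightest, while Nkx2-1, Sln and Hmx2 were not. Markers of striatum and septum had a mean log2 level of 8.56 to 8.69 on KO 1, KO 2 and KO 3, against 7.68 to 7.97 on the WT arrays and 7.93 and 8.17 on KO 4 and KO 5.

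**Figure D2:**
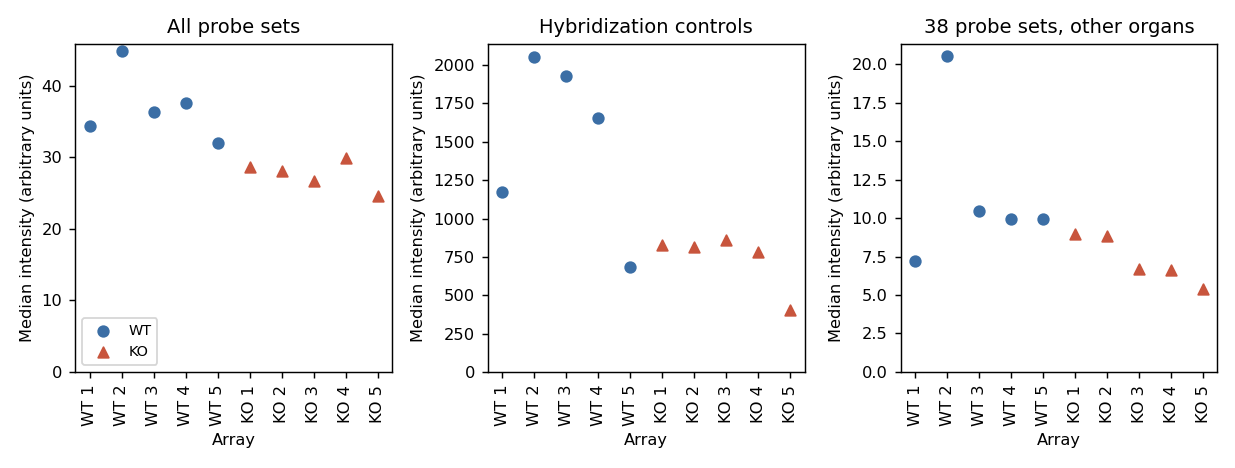
Median intensity (arbitrary units, axes from 0) on each array of all 45037 probe sets, of the hybridisation controls and of the 38 probe sets of genes of other organs. Circles are WT arrays and triangles are KO arrays, and every WT array lies above every KO array in the first panel.

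None of the receptors differed between the groups at an adjusted p below 0.05 by limma with Benjamini-Hochberg adjustment over all 45037 probe sets. That was also so of every other probe set, since 0 of 45037 passed (percent called, 0). The exact permutation test over all arrangements of the arrays, two-sided, also called 0. Its smallest possible p of 0.0079 came to 0.246 after adjustment, so this test was too coarse to call any probe set. Without adjustment, 12.6% of all probe sets had p under 0.05, 8.97% lower and 3.68% higher in KO, while among the receptors 1 of 17 did, a Lepr probe set near the bottom of the signal range. The groups did not overlap for 3.22% of all probe sets (2.42% with KO below, 0.808% with KO above) and for 0 of 17 receptor probe sets. The receptors were lower in KO for 12 of 17 probe sets, beside 65.1% of all probe sets, and their median difference was -0.18 beside -0.13 for all. This direction depends on scaling. Centring every array on its own median moved all differences up by 0.28, after which 4 of 17 receptor probe sets and 31.8% of all were lower in KO. Under quantile normalisation these were 8 of 17 and 51.3%. The 95% interval lay within 1 log2 unit either way for 15 of the 17, but this rests on the added 16. With 1 added instead, it did so for 3 of 17, those of Ntsr2, Ntsr1 and the brighter Npy1r probe set. In a bulk sample such as this, fewer cells of a type and less RNA per cell cannot be told apart.

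**Figure D3:**
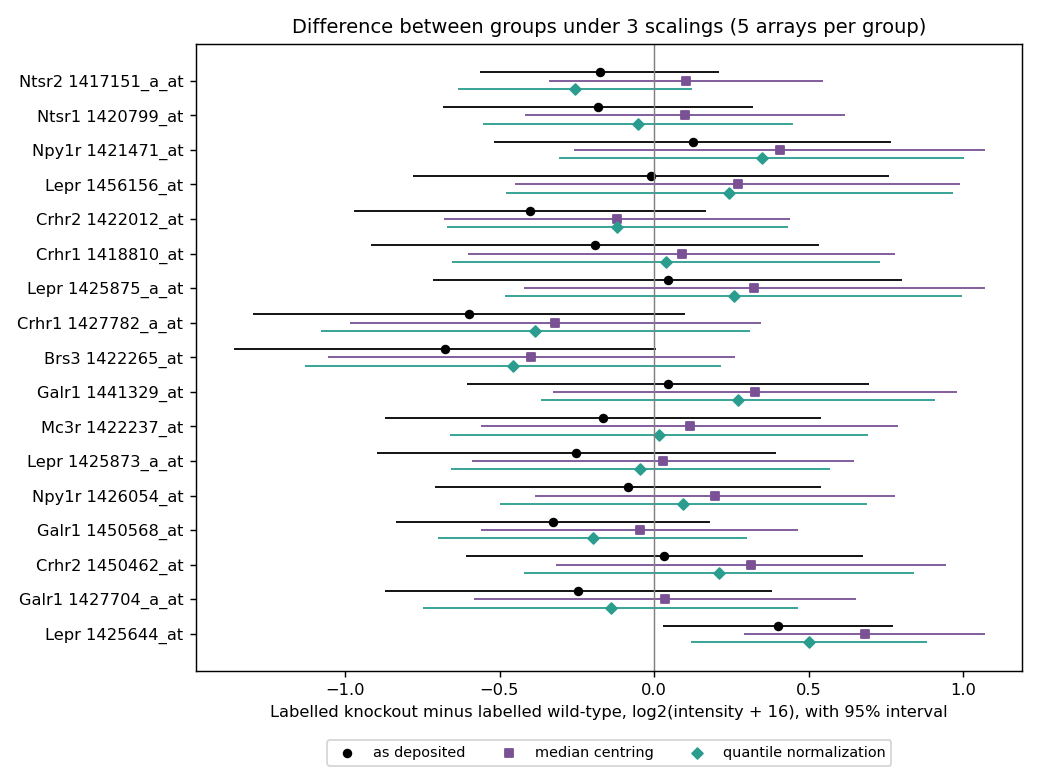
Difference between the 5 arrays labelled KO and the 5 labelled WT on the log2(intensity + 16) scale, with 95% intervals, for the 17 receptor probe sets under 3 scalings. Circles are values as deposited, squares are after median centring and diamonds after quantile normalisation, and only the Lepr probe set 1425644_at has intervals that leave out 0 under all 3.

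The neurotensin receptors gave the strongest signal of the list. Ntsr2, which in the brain is made mainly by astrocytes and also by some neurons, had a mean intensity of 1208, the 93.9th percentile of all probe sets. On WT arrays 1 to 5 it read 1542, 830, 1219, 1361 and 1480, and on KO arrays 1 to 5 it read 1081, 1278, 783, 1199 and 1305. The lowest array of each group, WT 2 and KO 3, stood well below the rest. The WT arrays that read 1542, 1361 and 1480 lay above every KO array. WT 2 and WT 3 lay within the KO range, so the groups overlapped in part. The highest array was 1.97 times the lowest. The means were 1286 ± 283 (SD, n = 5) in WT and 1129 ± 212 in KO, a difference of -0.18 (95% interval -0.56 to 0.21, limma adjusted p = 0.713). On this scale the interval corresponds to a KO level between 0.677 and 1.16 times the WT level. With quantile normalisation the difference was -0.25, with median centring it turned to 0.10, and with the hybridisation controls as a covariate it was -0.52 (limma adjusted p = 0.649).

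Ntsr1, the neurotensin receptor of neurons and the one with the higher affinity, had a mean of 83.2. Its WT arrays read 107, 88.7, 68.1, 125 and 61.7 and its KO arrays 83.0, 66.9, 63.1, 70.2 and 97.6. The WT arrays spanned the whole KO range. The difference was -0.18 (95% interval -0.68 to 0.32, limma adjusted p = 0.775). Ntsr2 was above Ntsr1 on 10 of 10 arrays, by a mean of 3.62 log2 units, which is a gap between signals of different probe sets. Neurotensin itself was a bright transcript: Nts read 218, 251.7, 336, 252.5 and 265 on the WT arrays and 434, 357, 323, 275 and 403 on the KO arrays. The KO arrays tended to be higher, with overlap of the groups, and the difference of 0.41 (95% interval 0.04 to 0.78) had an exact permutation p of 0.0317 and a limma adjusted p of 0.345. It kept its sign with median centring (0.69) and with quantile normalisation (0.36). Nts was highest on KO 1 and KO 5, while the mean of the striatum and septum markers was highest on KO 1, KO 2 and KO 3. Over all KO and WT arrays these markers had a median difference of 0.58. Of these 12 markers 0 were called, as was so of all probe sets. Without adjustment, 6 were higher and 1 lower at a limma p under 0.05, beside 5.32% and 8.68% of all genes. The part of these markers in the Nts difference was not tested. Sort1 and Sorl1, sorting receptors that also bind neurotensin, had levels of 982 and 1352 in WT and 1174 and 1339 in KO, with differences of 0.21 and -0.04 that did not pass.

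The arrays with low Ntsr2 were also those with the lowest mean of 11 astrocyte genes, 10.43 on WT 2 and 10.28 on KO 3 against 10.45 to 10.68 on the others. With the group means removed, the correlation of Ntsr2 with the single astrocyte genes over the 10 arrays ran from -0.03 to 0.77. The highest were with Slc1a3, a glutamate transporter (r = 0.77), and Agt, the angiotensin precursor (r = 0.73), and the lowest with Gjb6 and Aqp4 (both -0.03). The arrays share RNA input, amplification and scaling, and these values are descriptive. Astrocyte genes as a list had 0 of 11 called and a median difference of -0.04. Gfap, an astrocyte filament gene, was lower on every KO array than on every WT array, 8282 against 4995 on average (difference -0.73, limma adjusted p = 0.143), and Ntsr2 did not share that pattern. The part of astrocyte content in the spread of Ntsr2 was not tested.

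**Figure D4:**
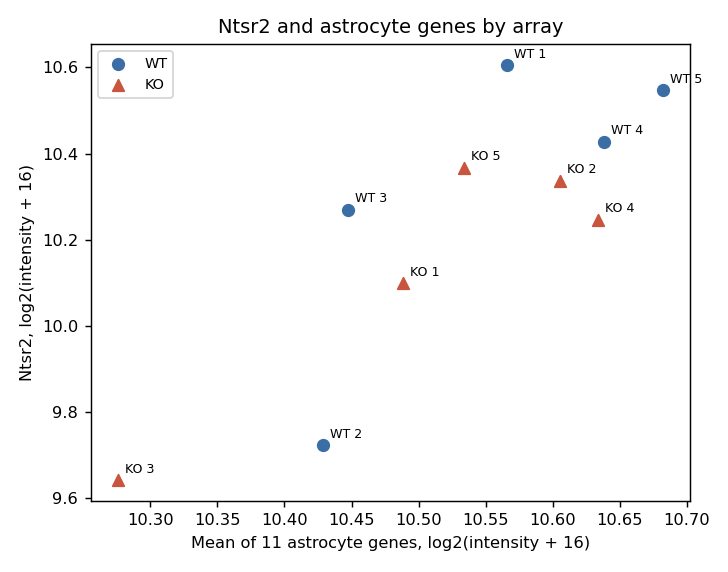
Ntsr2 against the mean of 11 astrocyte genes, both as log2(intensity + 16), on 10 arrays, with circles for WT and triangles for KO. WT 2 and KO 3 lie lowest for Ntsr2 and lowest on the astrocyte axis.

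Npy1r, a neuropeptide Y receptor that inhibits the cells that carry it, came next in signal through its probe set 1421471_at, with a mean of 55.0. The WT arrays read 69.7, 28.9, 62.6, 37.3 and 55.6 and the KO arrays 34.9, 57.1, 106, 65.0 and 32.5. Each group had arrays both above and below the brightest probe set of other organs, and KO 3 was the highest of all. The difference was 0.13 (95% interval -0.52 to 0.77, limma adjusted p = 0.887). The other Npy1r probe set, 1426054_at, had a mean of 12.0, within the range of genes of other organs, and followed the brighter one only loosely over the arrays (r = 0.34, 10 arrays, group means removed). Npy read 63.3 ± 23.6 in WT and 61.4 ± 24.5 in KO, a difference of -0.04. The related receptor Npy5r had 73.1 ± 29.9 in WT and 104 ± 28.3 in KO, a difference of 0.46 with an adjusted p of 0.480 by limma, and it was above the range of genes of other organs.

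Below these 3 probe sets the order of signal was not resolved. Neighbours in the ranking from the fourth place down had the same order on only 4 to 7 of the 10 arrays, with gaps of 0.01 to 0.25 log2 units against standard deviations of 0.30 to 0.60 for the single probe sets. Ntsr1 was above Npy1r on 9 arrays and Npy1r above the brightest Lepr probe set on 7. The 14 dimmer probe sets covered Lepr, Crhr1, Crhr2, Brs3, Galr1, Mc3r and the second Npy1r probe set. Their values overlap what genes of other organs gave, so a signal at this level does not show whether the receptor transcript was present or not.

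For Lepr, the 4 probe sets had means of 34.1, 29.5, 14.5 and 4.21. The brightest, 1456156_at, read 15.2, 41.5, 34.1, 54.7 and 17.1 on the WT arrays and 16.7, 35.6, 20.7, 90.7 and 14.8 on the KO arrays. Only KO 4 stood above all genes of other organs, and the groups were alike in range. The difference was -0.01 (95% interval -0.78 to 0.76, limma adjusted p = 0.994). The probe set 1425875_a_at was 0.04 higher in KO and 1425873_a_at 0.25 lower. Over the 10 arrays, with group means removed, the r between pairs of the 4 Lepr probe sets ran from -0.40 to 0.42, the highest being that of the brightest pair. The dimmest, 1425644_at, was the 1 receptor probe set with an unadjusted p under 0.05: it read 0.503, 3.00, 0.873, 0.603 and 1.32 in WT and 6.63, 13.9, 9.95, 1.42 and 3.92 in KO. KO 4 lay inside the WT range and the other KO arrays above it, but all 10 values were low, with a mean at percentile 4.31 of all probe sets. The difference was 0.40 (95% interval 0.03 to 0.77, exact permutation p = 0.0159, limma adjusted p = 0.359), and it was 1.69 with 1 added in place of 16. No level of the transcript can be read from values this low. Choroid plexus, which also carries Lepr, was read through 13 markers, of which 0 were called. Their mean log2 level was 6.73 on KO 3 and 6.20 to 6.66 on the other arrays, and Ttr among them read 6161 on KO 3 and 75.5 to 446 elsewhere. On KO 3 the Lepr probe sets read 20.7, 31.9, 3.39 and 9.95, none of them the highest of the 10 arrays.

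Most genes that act after the leptin receptor gave signal above that of genes of other organs. All 17 listed were measured, 15 were above the range of genes of other organs, 0 passed the test, and 9 were lower in KO with a median of -0.05, beside -0.09 over all 18193 genes, of which 60.6% were lower. Without adjustment 1 of the 17 had p under 0.05 by limma, Ptpn1, beside 8.68% of all genes lower and 5.32% higher. Ptpn1, a phosphatase that removes phosphate from the receptor's kinase JAK2, read 1047, 1195, 1098, 1171 and 1565 on the WT arrays and 876, 868, 953, 892 and 825 on the KO arrays. Every KO array was below every WT array. The difference was -0.44 (95% interval -0.74 to -0.14, exact permutation p = 0.0079, limma adjusted p = 0.221), it was -0.52 with quantile normalisation and -0.16 with median centring, and both Ptpn1 probe sets were lower. Ptpn2, a related phosphatase, differed by 0.32 (adjusted p = 0.470 by limma), and 2 of its 4 probe sets went the other way. Socs3, the feedback inhibitor that STAT3 induces, had 54.0 ± 50.7 in WT and 28.4 ± 15.7 in KO (difference -0.44, limma adjusted p = 0.708), WT 5 at 134 being the highest and KO 4 at 3.41 the lowest. Stat3 and Jak2 differed by -0.05 and -0.10. Leprot, a small membrane protein encoded beside Lepr that limits its surface display, was at 288 and 289 in the groups, a difference of 0.00 (95% interval -0.45 to 0.45).

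Crhr1 and Crhr2, the receptors for corticotropin-releasing hormone and the urocortins, were dim. Crhr1 had means of 29.6 and 26.9 for its 2 probe sets, and Crhr2 of 28.1 and 10.6. Crhr1 1427782_a_at read 34.6, 80.5, 24.8, 15.1 and 28.4 in WT and 20.1, 25.7, 24.6, 4.97 and 10.8 in KO. WT 2 was the highest array here and also for the other Crhr1 probe set, and the groups overlapped. The difference was -0.60 (95% interval -1.30 to 0.10, exact permutation p = 0.103, limma adjusted p = 0.458), while 1418810_at differed by -0.19, its WT arrays reaching from 6.22 to 68.8. The Crhr1 pair had r = 0.59 and Spearman rho = 0.33 over 10 arrays with group means removed. Crhr2 1422012_at read 39.9, 36.2, 29.9, 42.8 and 21.9 in WT and 32.7, 16.0, 16.1, 22.8 and 22.4 in KO. KO 2 and KO 3 lay below every WT array and the other KO arrays within the WT range, and the difference was -0.40 (95% interval -0.97 to 0.17, limma adjusted p = 0.550). The second Crhr2 probe set showed 0.03. WT 2 was the highest array for 5 of the 16 receptor probe sets other than Ntsr2, and it also had the highest median of genes of other organs, 20.6 against 5.36 to 10.5 on the other arrays. Without WT 2 the difference of Crhr1 1427782_a_at was -0.35 and that of 1418810_at 0.032, while Crhr2 1422012_at stayed at -0.38.

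Crh, the ligand, was well above the yardstick. It read 161, 231, 196, 96.6 and 382 in WT and 266, 588, 318, 110 and 634 in KO, a wide spread in both groups. The difference was 0.70 (SE 0.38, limma adjusted p = 0.451). Crhbp, the binding protein that sequesters the ligand, differed by 0.13 (95% interval -0.72 to 0.99). Ucn, Ucn2 and Ucn3, the urocortins, had means of 7.31 to 17.8 in the groups, within the range of genes of other organs.

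Brs3 had the largest negative difference among the receptors in the values as deposited. It read 32.4, 46.1, 11.6, 35.9 and 49.0 on the WT arrays and 24.5, 23.2, 3.34, 22.8 and 6.49 on the KO arrays. Except for WT 3, every WT array was above every KO array, but all values on the WT arrays were of the size that genes of other organs reached. The means were 35.0 ± 14.8 in WT and 16.1 ± 10.3 in KO, and the difference was -0.68 (95% interval -1.36 to 0.0065, exact permutation p = 0.0794, limma adjusted p = 0.399). The value was -0.40 with median centring, -0.46 with quantile normalisation and -1.25 with 1 added in place of 16. Restricting the fit to the 7 arrays that carried spike-in RNA gave -0.26, and there Crhr2 1422012_at (-0.45), Lepr 1425875_a_at (-0.42) and Crhr1 1427782_a_at (-0.40) were more negative. Among the bombesin-like peptides, Grp was at 437 ± 114 in WT and 316 ± 98.9 in KO (difference -0.46, limma adjusted p = 0.405), and Nmb at 57.5 ± 20.5 and 49.9 ± 5.27. Their receptors Grpr and Nmbr, both dim, differed by -0.42 and 0.46, and neither passed.

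Mc3r, the melanocortin receptor found on hypothalamic neurons including those that make melanocortins, had a mean of 17.7. Its WT arrays read 18.6, 37.5, 7.09, 4.20 and 32.2 and its KO arrays 8.35, 17.7, 11.7, 36.3 and 3.76. High and low arrays were found in both groups, and the difference was -0.16 (95% interval -0.87 to 0.54, limma adjusted p = 0.863). Pomc, the precursor of the melanocortin agonists, was at 62.0 ± 12.3 and 61.0 ± 16.8. Mrap2, an accessory protein of melanocortin receptors, was 27.9 in WT and 17.2 in KO (difference -0.40, limma adjusted p = 0.594), below the brightest gene of other organs.

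Mgrn1, a ubiquitin ligase that acts on melanocortin receptor signalling, stood apart among the accessory genes: it read 126, 298, 147, 110 and 98.5 in WT and 76.8, 71.2, 58.1, 76.2 and 46.2 in KO. All KO arrays were below all WT arrays and WT 2 was far above the rest. The difference was -0.99 (95% interval -1.55 to -0.42, exact permutation p = 0.0079, limma adjusted p = 0.171). As deposited, all 3 Mgrn1 probe sets were lower in KO, with differences from -0.99 to -0.21. Median centring moved all differences up by 0.28, which is more than the size of the smallest of these. The brightest Mgrn1 probe set, whose values are given here, differed by -0.71 with median centring and -0.89 with quantile normalisation. Of the 11 binding and accessory genes 0 passed, 7 were lower, and their median was -0.22. Over all genes 60.6% were lower and the median was -0.09. The median of the 11 was -0.12 with quantile normalisation and 0.06 with median centring. Sdc3, a proteoglycan that helps the natural melanocortin antagonist act, differed by -0.38 (adjusted p = 0.485 by limma).

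Galr1, a galanin receptor that inhibits neurons, had 3 dim probe sets with means of 21.4, 9.98 and 9.29. The brightest, 1441329_at, read 33.5, 17.5, 30.9, 1.98 and 24.6 in WT and 23.7, 28.3, 12.8, 24.5 and 16.3 in KO. WT 4 was by far the lowest, yet WT 4 was the highest array (40.2) for 1427704_a_at. Their differences were 0.05, -0.33 and -0.25, none of which passed, and the r between them ran from -0.55 to 0.08. The ligand was well above the yardstick. Gal read 1498, 1238, 1158, 1521 and 1300 on the WT arrays and 1982, 1487, 1276, 1373 and 1391 on the KO arrays. KO 1 was the highest and the remaining arrays overlapped. The difference was 0.15 (95% interval -0.16 to 0.47, limma adjusted p = 0.697). Galr2, another galanin receptor, read 19.3 in WT and 8.92 in KO, within the range of genes of other organs.

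Across the 13 ligand genes measured of 16 listed, 0 passed, 8 were lower in KO and the median difference was -0.04. Over all genes 60.6% were lower and the median was -0.09, which is also the background for the other lists of this paragraph. Cartpt, which encodes CART, a peptide that restrains feeding, was at 327 ± 83.5 and 417 ± 129 (difference 0.31, limma adjusted p = 0.570). Gal, Cartpt, Grp, Nts, Crh, Pomc, Npy and Nmb were above the brightest gene of other organs, so 8 of 13 ligands and 3 of the 9 receptor genes were. Of the other receptors of the same families, 12 of 13 were measured and 3 were above that level, namely Sort1, Sorl1 and Npy5r, with 0 passing, 7 lower and a median of -0.08. Of 26 G protein, arrestin and receptor kinase genes 23 were measured, all above it, with 0 passing, 13 lower and a median of -0.09. The smallest p there was that of Gng4, a G protein gamma subunit, which was lower on every KO array (15718 against 12282, difference -0.35, limma adjusted p = 0.293) and came to -0.04 under quantile normalisation and -0.07 under median centring. Gng3, another gamma subunit, differed by -0.36 (adjusted p = 0.379 by limma).

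**Figure D5:**
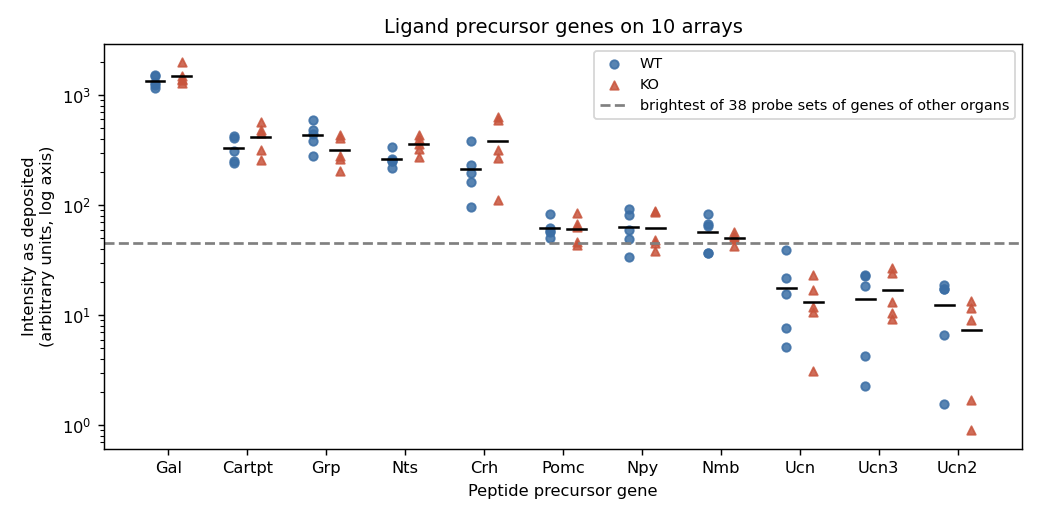
Intensity as deposited (arbitrary units, log axis) of ligand precursor genes on 10 arrays, with circles for WT, triangles for KO and bars for group means. The means of Gal are 1343 in WT and 1502 in KO, and Ucn, Ucn2 and Ucn3 lie below the dashed line of the brightest probe set of genes of other organs.

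The genes whose array pattern was most like each receptor were found by Pearson r over the 10 arrays with group means removed, among 13489 genes. They were Skap2 (r = 0.96), an adaptor protein, and Mboat7 (r = 0.96), a phospholipid acyltransferase, for Ntsr2. For Ntsr1 they were Gm15706 (r = 0.94) and Kbtbd4 (r = 0.92). For Npy1r they were Kcnd2, a potassium channel subunit (r = 0.91), and Grm3, a glutamate receptor (r = 0.89). For Ntsr2, Skap2 and Mboat7 alike, WT 2 was the lowest WT array and KO 3 the lowest KO array. Grm3 peaked on KO 3 at 1088 against 255 to 621 on the other arrays, the array where Npy1r was also highest. The dim receptors reached r of 0.93 to 0.97 with their nearest genes: Ska2 and Pacc1 for Lepr, Srp72 and Dolpp1 for Crhr2, Dcdc2b and Stk35 for Crhr1, Ticam1 and Marchf3 for Brs3, and Lrmp and Dennd4c for Galr1. Such values are picked as the highest of many over 10 arrays, so high values also occur for probe sets at the level of genes of other organs.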

How the data were processed

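The data were processed from 1 deposited table. It holds array intensity values on a linear scale, made by the authors with GCOS, per the submitters' processing notes; no version or settings of it were given, and no detection calls were used. Per the labels' protocols, biotin labelling followed amplification of the RNA in 2 rounds. Each array had the same mean (200.002) without its lowest and highest 2%, so whole arrays had been scaled. With arrays, the number of animals (5 per group) limits the precision. The p-values set a difference against the spread between arrays. With 1 array per mouse, animal and technical variation cannot be told apart in that spread.

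Values were taken as log2(intensity + 16) without further normalisation or a filter on dim probe sets, because every receptor was to be accounted for; a fold on this scale understates the change of dim genes. The 64 control probe sets were left out. Differences were fitted with limma 3.58.1 (lmFit and eBayes with an intensity trend, R 4.3.3) over 45037 probe sets with Benjamini-Hochberg adjustment; a result passed at an adjusted p below 0.05. Probe set names came from the platform annotation: 34945 name 1 gene, 932 several and 9160 none. For related genes the brightest probe set stood for the gene. The fit was tested on simulated data.

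The members, lists and tests were chosen with earlier results of these data known. The text names every receptor probe set, the 2 genes most like each receptor whose brightest probe set is outside the dimmest 40%, the ligands, Socs3, Leprot, Crhbp and Mrap2, and the 2 genes of smallest p of each list; other genes named were chosen after their values were seen. Alternatives tried were other pseudocounts, scalings and filters, array weights, no trend, blocks, the exact test, gene means, spike-in arrays alone and each array left out.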

Additional observations from a re-analysis of the deposited data

Results flagged for a closer look

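Of the 34 groups of 5 values tested (17 receptor probe sets in both groups), 1 held an array that stood apart from the rest of its group. Crhr1 1418810_at read 16.1 on KO 1 and 25.4 to 27.4 on the other KO arrays, and the gap took more of the group's range than the limit of 0.71 allows. Chance gives such a value in about 1 in 20 groups. The WT arrays of the same probe set ran from 6.22 to 68.8, so KO 1 was inside their range.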

How the results depend on the processing

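No receptor probe set passed under any of the alternatives, the lowest adjusted p being 0.0719 for Lepr 1425644_at with median centring. Of these alternatives, the exact permutation test was too coarse to call any probe set. With median centring 550 probe sets passed, 545 of them higher in KO, and 4 of 17 receptor probe sets were lower. Without the dimmest 40% or 60% of probe sets, 7 of 10 and 2 of 3 receptor probe sets were lower, and with gene means 7 of 9 genes were, with 1 gene called (Pkdrej, -1.34). Leaving out single arrays, 10 to 13 receptor probe sets were lower and 0 to 1 of all probe sets passed (Synpr without KO 1, Tac1 without KO 4).

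Signs turned in these cases, and the cause was not tested. Median centring gave Ntsr2 0.10, Ntsr1 0.10, Crhr1 1418810_at 0.089, Mc3r 0.12, Lepr 1425873_a_at 0.028, Npy1r 1426054_at 0.20, Galr1 1427704_a_at 0.035 and Lepr 1456156_at 0.27. Quantile normalisation gave Crhr1 1418810_at 0.039, Mc3r 0.016, Npy1r 1426054_at 0.095 and Lepr 1456156_at 0.24. Lepr 1456156_at came to 0.014 with a pseudocount of 64. Array weights gave Lepr 1425875_a_at -0.070 and Lepr 1456156_at 0.060, and the spike-in block gave Lepr 1425875_a_at -0.068. On the 7 arrays with spike-in signal Npy1r 1421471_at was -0.20, Mc3r 0.26, Lepr 1425875_a_at -0.42 and Lepr 1456156_at 0.015. With the hybridisation controls as a covariate, chosen after seeing the data, Crhr1 1418810_at was 0.19, Lepr 1425873_a_at 0.10, Npy1r 1426054_at 0.51, Galr1 1441329_at -0.051, Crhr2 1450462_at -0.17 and Lepr 1456156_at 0.60.

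Over the fits without 1 array, Crhr1 1418810_at ran from -0.45 to 0.032, Npy1r 1421471_at from -0.071 to 0.26, Mc3r from -0.37 to 0.0053, Lepr 1425875_a_at from -0.17 to 0.25, Npy1r 1426054_at from -0.23 to 0.081, Galr1 1427704_a_at from -0.39 to 0.039, Galr1 1441329_at from -0.20 to 0.16, Crhr2 1450462_at from -0.10 to 0.26 and Lepr 1456156_at from -0.31 to 0.14. Brs3 (-0.88 to -0.51) and Ntsr2 (-0.32 to -0.052) kept their sign.

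No pairing by replicate number was seen: the correlation of same-numbered arrays was -0.09 to 0.04, and 0 of 5 correlated best with their own number. Such correlations cannot exclude that same-numbered mice were paired. With the replicate number as a block 1 probe set passed (Pde10a, 1.60, limma adjusted p = 0.0272) and no receptor did. Signal near that of genes of other organs limits 14 of the 17 receptor probe sets.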
